A study of Mus musculus with 65 samples.

Results

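Transcripts of the main cytosolic and mitochondrial heat shock proteins were examined in 65 single neurons of the mouse nucleus of the solitary tract. The set was chosen by name and holds 9 genes: Hspa1a, Dnajb1, Hsph1 and Hsp90aa1, whose transcripts are strongly induced by heat and other protein stress; Hspa8, Hsp90ab1 and Dnaja1, which are abundant in unstressed cells; and Hspd1 and Hspe1, whose products work inside mitochondria. Of the 9 genes, 8 had a line in the expression table, out of 11875 uniquely named genes. Dnaja1 matched no line by its symbol or its older names and is not analysed here, which left 4 inducible, 2 constitutive and 2 mitochondrial genes.

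The neurons came from male mice of mixed strain that carried Hsd11b2-Cre and the Ai9 reporter, so that cells in which the Hsd11b2 promoter had driven Cre made the red protein tdTomato. Red cells were picked by hand after papain digestion, frozen, and turned into libraries of polyadenylated RNA with Smart-Seq2, which copies whole transcripts, and Nextera XT. The chow group holds 33 cells from mice fed standard chow, and the low-sodium group holds 32 cells from mice fed a low-sodium diet; both groups carried the same Cre and reporter. The labels give no age, no length of diet and no animal of origin, and the extraction text names Arc-ME whereas the tissue label of every cell is the nucleus of the solitary tract.

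Each diet therefore counts as 1 sample. Differences between diets below are descriptions, given with the standard deviation over cells (SD), and no test between diets was made. Levels are log2(CPM + 1), where CPM is the read count of a gene on the cell's scaled total, and a diet difference is the mean of the low-sodium cells minus the mean of the chow cells on that scale. A difference of 1 was taken as the limit of size.

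Heat shock proteins are molecular chaperones, which hold unfolded proteins, help them fold and pass those that cannot be folded on for breakdown. HSP70 proteins (Hspa1a, Hspa8) bind exposed stretches of a client and are driven by J-domain partners such as Dnajb1, while Hsph1 is a large HSP70 relative that helps exchange their nucleotide. HSP90 proteins (Hsp90aa1, Hsp90ab1) act later on kinases and on steroid receptors, among them the mineralocorticoid receptor through which these neurons sense aldosterone. Hspd1 and Hspe1 encode the chamber and the lid of the mitochondrial folding machine. The inducible genes are switched on by heat shock factor 1, which binds inverted repeats of the unit nGAAn, and freshly dissociated brain cells are known to carry such transcripts together with immediate early genes such as Fos.

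The promoters are shown because some carry the repeats to which heat shock factor 1 binds and because near-identity and shared position bear on how single genes can be read. Of the 9 genes, 6 were matched to RefSeq promoters (not Hspa8, Hsp90aa1 and Hsp90ab1). Sequences are from RefSeq (GRCm38.p6), 5′ to 3′ on the strand of the gene named first, with the repeat units in capitals. Hspa1a is shown over the 200 bases before its start (chr17:34972157-34972356, minus strand). That window overlaps no annotated exon. The divergent genes Hspe1 and Hspd1 are shown over the 30 bases that hold the repeats (chr1:55088053-55088082, plus strand). The site lies upstream of the Hspe1 start and of 1 of the 2 RefSeq starts of Hspd1; it lies downstream of the other, and an alternative first exon of Hspd1 covers it in GENCODE M21. Hsph1 is shown over 30 bases that hold its repeat (chr5:149636351-149636380, minus strand), which overlap the first exon of 1 of its transcripts.
Hspa1a: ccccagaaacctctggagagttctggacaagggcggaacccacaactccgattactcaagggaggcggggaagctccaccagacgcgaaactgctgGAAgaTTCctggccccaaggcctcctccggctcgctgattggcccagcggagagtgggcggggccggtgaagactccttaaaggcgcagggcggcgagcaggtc
Hspe1-Hspd1: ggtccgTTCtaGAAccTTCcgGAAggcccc
Hsph1: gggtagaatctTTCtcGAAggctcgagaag

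The motifs searched were GAANNTTC and TTCNNGAA, each a pair of units, and their extensions to 3 units, GAANNTTCNNGAA and TTCNNGAANNTTC, in the 250 bases before each start; each pair motif reads the same on both strands, and a triple holds 2 overlapping pairs. A pair was present in 12.8% of 32851 promoter windows and a triple in 0.466%. The Hspe1-Hspd1 site holds 4 alternating units, read as 3 pairs and 2 triples, between the Hspe1 start (base 55088148) and the Hspd1 start at base 55087932, which lie 216 bases apart. The window of the other Hspd1 start, at base 55088243 on the Hspe1 side, holds 0 pairs and 0 triples. Hspa1a and Hsph1 each hold 1 pair. Dnaja1, a constitutive gene, holds 1 pair at 1 of its 3 starts and none at the other two. The windows of Dnajb1 and Fos hold none of these motifs. The Hspa1a window differed from that of its neighbour and near-copy Hspa1b by 1 of 200 bases, and 65.5% of the Hspa1a transcript's 25-base words also occur in Hspa1b, so reads of the pair can be split between them in a way the table does not show.

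Abundance covered a wide range. Transcripts of Hspa8, Hsp90aa1, Hsp90ab1, Hsph1 and Hspe1 were above 0 in all 65 cells, Hspd1 in 64, Dnajb1 in 62 and Hspa1a in 47. Per kilobase of transcript, Hsp90ab1 was the highest at 768 ± 376 CPM per kb (SD, n = 65 cells). Hsp90aa1 followed at 301 ± 147 and Hspa8 at 294 ± 144 CPM per kb. Hspe1 stood at 151 ± 102, Hsph1 at 95.4 ± 54.2, Hspd1 at 68.1 ± 35.5 and Dnajb1 at 64.2 ± 66.3 CPM per kb. Hspa1a was last at 29.4 ± 42.5 CPM per kb. Only the step from Hsp90ab1 to Hsp90aa1 was larger than the SD of either gene. The order therefore put the cytosolic HSP90 pair and the constitutive HSP70 on top, and the inducible HSP70 at the bottom. Processed copies of Hspa8, Hsp90ab1, Hspd1 and Hspe1 exist in the genome, so the levels of these genes are uncertain by whatever share of reads such copies take. Hspa1a shares 65.5% of its 25-base words with Hspa1b, so its level and its last place are uncertain too.

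Cells had between 50078 and 5319462 reads over the listed genes (median 602351 for chow and 694430 for low sodium), and 1 read was worth 0.16 to 16.1 CPM. In 9 low-sodium cells, which carry the numbers 42, 45 to 51 and 57 in their labels, CPM summed to between 1393471 and 2170050 over the listed genes, against at most 1147326 in the other 56 cells. The results are given with and without these 9 cells. Every one of the 65 cells had at least 3 neuronal markers and at least 3 markers of the aldosterone-sensing neurons above 10 CPM. At least 3 astrocyte markers exceeded that level in 16 chow and 9 low-sodium cells, and at least 3 oligodendrocyte markers in 9 and 12. All 7 astrocyte markers had a line, with summed levels of 131 to 6351 CPM in chow and 72.4 to 1939 CPM in low-sodium cells. For oligodendrocytes 5 of 6 markers had a line (not Mog), with sums of 0 to 6950 and 17.1 to 13560 CPM, and none of the 6 microglial markers had one.

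**Figure D1:**
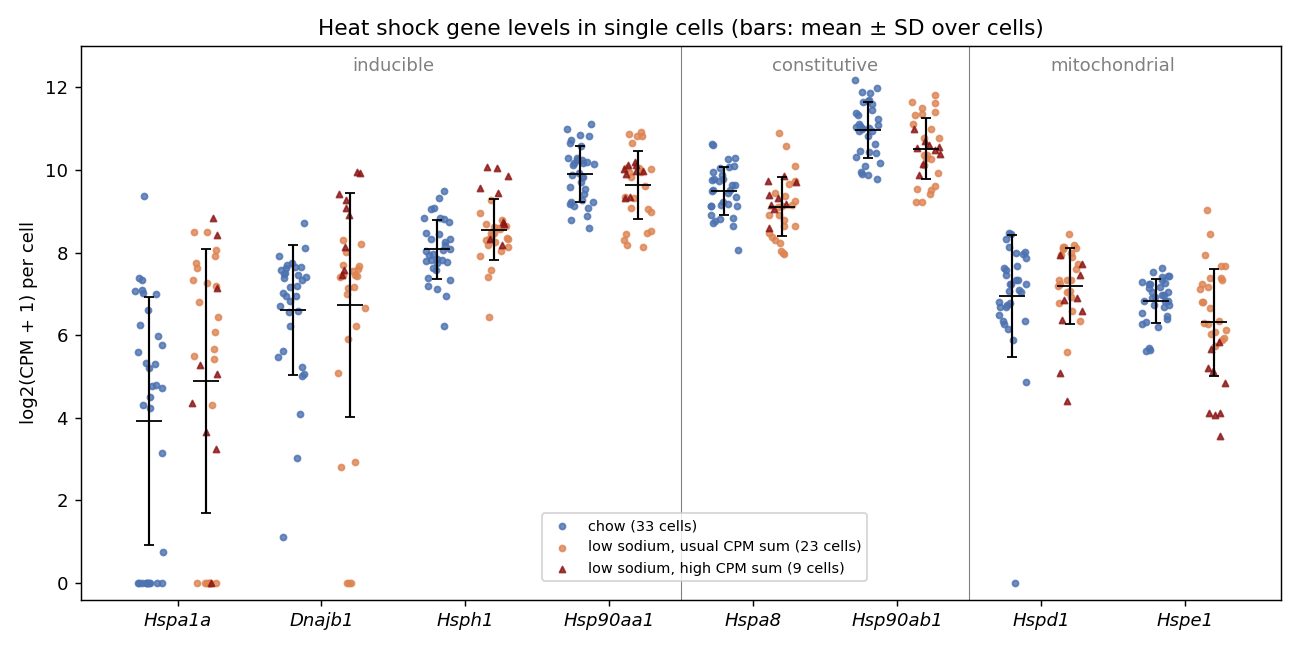
Level of each heat shock gene in each cell, as log2(CPM + 1) on the vertical axis, by gene and diet on the horizontal axis; points are cells, triangles the 9 low-sodium cells with high CPM sums, and bars the mean ± SD over the cells of a diet. Hspa1a is at 0 in 18 cells and spread widely in the rest, whereas Hspa8 keeps between 7.96 and 10.90.

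Hspa1a, the classical stress-induced HSP70, was present in some cells and at 0 in others. It was above 0 in 47 of 65 cells (72.3%, exact binomial 95% interval 59.8 to 82.7%), with 23 of 33 on chow (69.7%, 51.3 to 84.4%) and 24 of 32 on low sodium (75%, 56.6 to 88.5%). In chow its lowest, median and highest levels were 0, 4.77 and 9.37 on the log2 scale, and in low sodium 0, 5.59 and 8.83. The lowest level above 0 was 0.75, in a chow cell. The cells at 0 were not only the shallow ones: their read totals ran from 50540 to 3999598, with a median of 716904 against 651333 over all cells. In the deepest of them the limit that a count of 0 allows, 3 reads, was 0.66 CPM. Such limits and intervals cover counting error only. Thinning every cell to 50078 reads left 40 cells above 0, 18 of chow and 22 of low sodium.

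The near-copy Hspa1b was above 0 in 25 cells, 10 of chow and 15 of low sodium. Both genes were above 0 in 22 cells, Hspa1a alone in 25, Hspa1b alone in 3 and neither in 15. The rank correlation of the pair over cells was 0.30.

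Dnajb1, the stress-induced J-domain partner of HSP70, was above 0 in all 33 chow cells and in 29 of 32 low-sodium cells. Chow cells ranged from 1.11 to 8.71 with a median of 7.17, and low-sodium cells from 0 to 9.96 with a median of 7.47. The chow range lay inside the low-sodium range. Of the 3 cells at 0, 1 had 4682317 reads, where 3 reads stand for 0.52 CPM. At the high end were the 9 cells with high CPM sums, which ranged from 7.47 to 9.96 (8.86 ± 0.94, SD), against 0 to 8.30 (5.90 ± 2.74) in the other 23 low-sodium cells.

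Hsph1, the large HSP70 relative, was present in every cell. It ranged from 6.23 to 9.49 in chow, with a median of 8.03, and from 6.44 to 10.08 in low sodium, with a median of 8.47. Means of 8.07 ± 0.72 (chow) and 8.55 ± 0.74 (low sodium) gave a diet difference of 0.48, or 0.22 without the 9 cells. These 9 cells had a mean of 9.21 ± 0.74.

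Hsp90aa1, the inducible cytosolic HSP90, was abundant in every cell. It ranged from 8.59 to 11.10 in chow and from 8.14 to 10.92 in low sodium, with a median of 9.92 in each. Within cells it tracked Hsp90ab1 closely, lying below it by 1.07 ± 0.25 on the log2 scale in chow cells and by 0.88 ± 0.34 in low-sodium cells.

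The constitutive pair was abundant in every cell. Hspa8, the housekeeping HSP70 that also strips clathrin from vesicles, ranged from 8.06 to 10.63 in chow with a median of 9.50, and from 7.96 to 10.90 in low sodium with a median of 9.13. Hsp90ab1, the housekeeping HSP90, ranged from 9.78 to 12.17 in chow with a median of 11.02, and from 9.23 to 11.81 in low sodium with a median of 10.51. For both genes the diets overlapped and the low-sodium median lay below the chow median.

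For Hspa8 and both HSP90 genes the level moved with sequencing depth. The rank correlation with reads per cell was -0.88 for Hsp90aa1, -0.84 for Hsp90ab1 and -0.75 for Hspa8 over 65 cells, and -0.94, -0.94 and -0.74 over the chow cells alone. By contrast, over 65 cells it was 0.05 for Hsph1, -0.02 for Dnajb1, -0.07 for Hspa1a, 0.23 for Hspd1 and -0.31 for Hspe1. The value for Hspe1 depended on the cells: -0.46 in chow, -0.03 in low sodium and -0.55 without the 9 high-sum cells. Over 65 cells, correlations of at most -0.5 were found for 3 of the 8 genes and for 1.48% of all genes above 0 in at least 33 cells. Without the 9 cells Hspe1 passed that limit too, and the share of all genes was not taken there. High level and this pattern went together across genes: of 151 genes with a mean log2 level of at least 9, 41.1% reached -0.5, with a median of -0.43.

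The same pattern can be given in reads, which were recovered from the same CPM values. While the read total of a cell varied 106-fold, Hspa8 was covered by 76 to 1551 reads, a 20.4-fold range, and Hsp90aa1 by 66 to 1794 reads, a 27.2-fold range. Hsph1 by comparison took 13 to 2451 reads, a 188.5-fold range. In the shallowest cell, with 50078 reads, Hspa8 had more reads than Hsph1 (76 against 20), and in the deepest, with 5319462 reads, it had fewer (1551 against 2451). The slope of log2 reads of a gene on log2 reads of the cell, which is 1 where a gene takes a fixed share, was 0.62 for Hsp90aa1, 0.64 for Hsp90ab1, 0.70 for Hspa8, 0.90 for Hspe1 and 1.05 for Hsph1. Over the 1274 genes above 0 in every cell the median slope was 1.01, and over the 148 of them with a mean log2 level of at least 9, where both HSP90 genes and Hspa8 lie, it was 0.86. The source of the slopes under 1 was not tested.

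**Figure D2:**
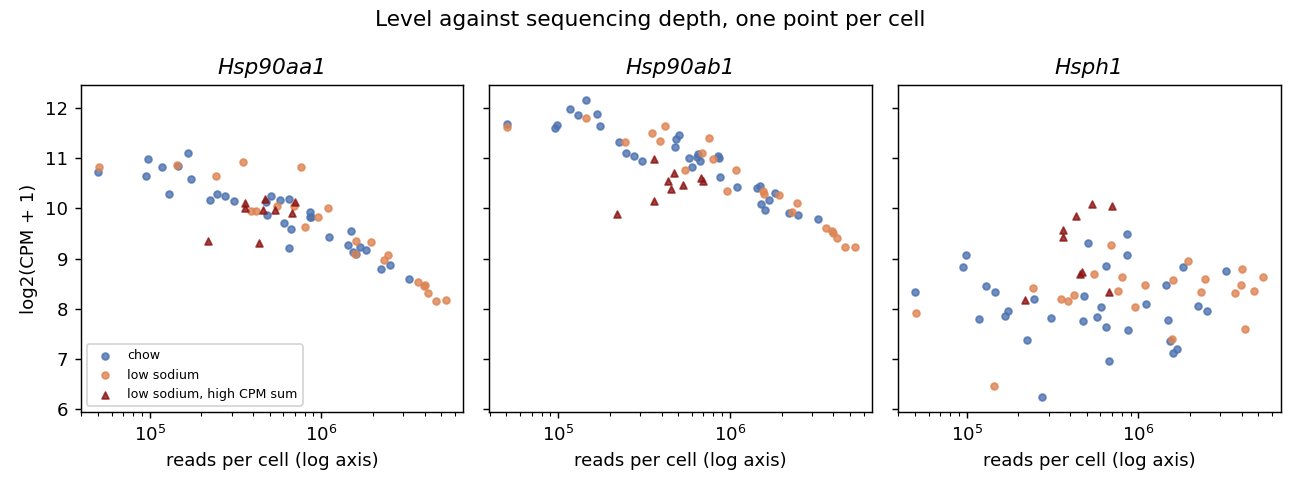
Level of Hsp90aa1, Hsp90ab1 and Hsph1 as log2(CPM + 1) on the vertical axis against reads per cell on a log axis, 1 point per cell, coloured by diet, with triangles for the 9 cells with high CPM sums. Both HSP90 genes fall steadily from the shallow to the deep cells (rank correlations -0.88 and -0.84), and Hsph1 shows no such trend (0.05).

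The mitochondrial pair lies side by side in the genome but did not share a pattern over cells. Hspd1, the chamber, ranged from 0 to 8.46 in chow with a median of 7.23, and from 4.42 to 8.45 in low sodium with a median of 7.34. The 1 cell at 0 was the shallowest of all, in which a count of 0 allows up to 48.3 CPM (3 reads). Hspe1, the lid, ranged from 5.62 to 7.64 in chow with a median of 6.93, and from 3.56 to 9.02 in low sodium with a median of 6.28. The rank correlation of Hspd1 with Hspe1 was -0.08 over 65 cells, -0.07 in chow and 0.05 in low sodium, and -0.01 given reads and genes detected. It was -0.25 without the 9 high-sum cells, and 0.17 without the 36 cells that carry at least 3 markers of a non-neuronal list. The genes most like each differed too: Txn1 (thioredoxin, 0.84), Cox6c (cytochrome oxidase, 0.83) and Ndufc2 (complex I, 0.82) for Hspe1, and Armc1 (0.60), Nop56 (0.52) and Med4 (0.51) for Hspd1, among 8126 genes searched. This search used all 65 cells and was not repeated without the 9 high-sum cells, in which Hspe1 and short transcripts in general lay lower (below). The part of these cells in the likeness was not tested.

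Hspe1 and Dnajb1 were the genes of the set in which the 9 high-sum cells stood furthest from the other 23 low-sodium cells. Hspe1 was 4.73 ± 0.79 in the 9 and 6.93 ± 0.87 in the 23, a difference of -2.20, with ranges of 3.56 to 5.84 and 5.74 to 9.02 that only just met. Dnajb1 differed by 2.95 the other way and Hsph1 by 0.92. Hspd1 differed by -0.84, and Hspa1a, Hspa8, Hsp90aa1 and Hsp90ab1 by between -0.05 and 0.34. Of 9942 genes with a transcript length, 2.98% lay below the Hspe1 difference and 97.2% below the Dnajb1 difference. The median over these genes was -0.14. All differences between the 9 and the 23 cells use CPM as deposited, not rescaled to an equal sum. CPM sums ran from 1393471 to 2170050 in the 9 cells and from 754874 to 1147326 in the 23.

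Transcript length went along with this contrast. Hspe1 has the shortest transcript of the set, 774 bases, and Hsph1 the longest, 3802 bases. Over all genes the median difference between the 9 and the 23 cells was -1.46 for 424 transcripts under 1000 bases, -0.26 for 2045 transcripts of 2000 to 3000 bases and 0.41 for 2428 transcripts of at least 5000 bases. Relative to the median of its own length class, Hspe1 differed by -0.74, Hsph1 by 0.85 and Dnajb1, with 2996 bases, by 3.21. The part of length in the differences of these genes was not tested.

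Between diets, 0 of the 8 genes differed by at least 1, where 10.9% of 10726 genes with a mean log2 level of at least 1 did (3.93% higher and 6.99% lower in low sodium). In the set 4 genes were higher and 4 lower, with a median difference of -0.07, against -0.12 over all genes. Without the 9 high-sum cells the split was again 4 and 4, with a median of -0.14 against -0.09 over all genes, and 0 of 8 passed 1 where 9.7% of genes did (2.96% higher and 6.73% lower). The ranges of the diets overlapped for every gene of the set. The share of all genes with such overlap was not taken, so it does not set these genes apart.

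Hspa1a came closest to the limit, with a difference of 0.96 between 3.93 ± 3.00 (chow) and 4.89 ± 3.19 (low sodium), well under either SD. It was 0.87 without the 9 cells, and 0.68 to 1.25 over the other settings tried, passing 1 with a pseudocount of 0.1 CPM, with size factors, after thinning and after adjustment for reads. Leaving out any 1 of 25 cells also took it past 1. Hspa1b differed by 0.93 in the same direction, from 0.74 ± 1.43 to 1.67 ± 2.45. Cells at 0 for Hspa1a occurred in both diets, 10 of chow and 8 of low sodium.

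Dnajb1 changed its sign with the 9 cells. Its difference was 0.13 over all cells (6.61 ± 1.57 against 6.73 ± 2.72) and -0.71 without them. Scaling turned it too: over the same 65 cells it was -0.16 with a pseudocount of 0.1 CPM, -0.13 with every cell rescaled to an equal CPM sum, and 0.86 when CPM were averaged over the cells of a diet before taking logs. Hspe1 also changed its sign with the 9 cells, with -0.53 over all cells (6.84 ± 0.53 against 6.31 ± 1.31) and 0.09 without them. Hspd1 differed by 0.25, by 0.49 without the 9 cells, and by -0.47 without the cells that carry non-neuronal markers, which leaves 29 cells. Leaving out single cells gave 0.04 to 0.34 for Hspd1, the lowest without the shallow chow cell in which it was at 0. For these 3 genes the direction thus depended on which cells were kept, for Dnajb1 also on the scaling, and none of the differences over all cells exceeded the larger SD of its diets.

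Hspa8 was lower in low sodium by 0.38 (9.49 ± 0.59 against 9.11 ± 0.71), Hsp90ab1 by 0.46 (10.97 ± 0.67 against 10.51 ± 0.74) and Hsp90aa1 by 0.26 (9.90 ± 0.67 against 9.63 ± 0.81). Low-sodium cells were the deeper ones, with a median of 1088899 reads once the 9 are left out, against 602351 in chow. Adjusted for log2 reads by least squares the differences were -0.16, -0.20 and 0.02, and with the 9 cells also left out -0.12, -0.01 and 0.09. The adjustment was chosen after the values were seen. Other settings gave larger differences: -0.51, -0.81 and -0.50 without the cells that carry non-neuronal markers, and -0.61, -0.69 and -0.49 with every cell rescaled to an equal CPM sum. Leaving out the 9 cells alone gave -0.46, -0.44 and -0.36.

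**Figure D3:**
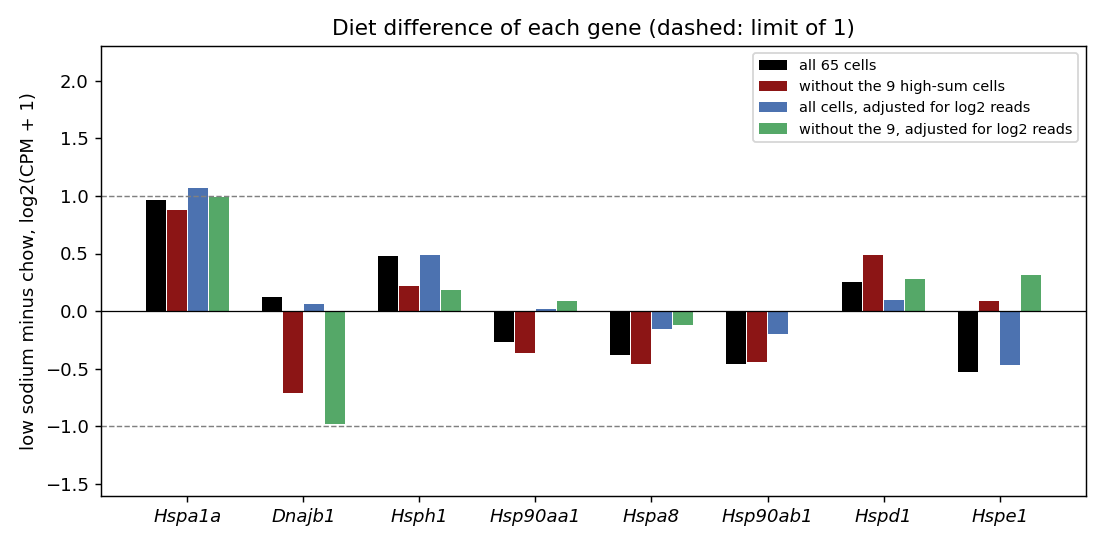
Diet difference of each gene, low sodium minus chow in log2(CPM + 1), over all 65 cells, without the 9 high-sum cells, and each of these adjusted for log2 reads; bars start at 0 and dashed lines mark a difference of 1. Hspa1a stays near 1 in all 4 versions, Dnajb1 and Hspe1 change sign without the 9 cells, and the Hsp90ab1 difference shrinks from -0.46 to -0.01.

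Within a cell, the mean of the inducible genes lay closer to that of the constitutive genes in low sodium than in chow. The 4 inducible genes averaged 7.13 ± 1.06 (chow) and 7.45 ± 1.18 (low sodium), and the 2 constitutive genes 10.23 ± 0.60 and 9.81 ± 0.68. Inducible minus constitutive was -3.10 ± 1.07 in chow, from -5.28 to -1.32 with a median of -2.93. In low sodium it was -2.36 ± 1.37, from -6.58 to -0.51 with a median of -1.96. The diet difference of 0.74 is smaller than the SD over cells, and the ranges overlapped. It was 0.46 without the 9 cells, 0.58 on adjustment for reads, and 0.14 with both. By diet the inducible mean differed by 0.33 and the constitutive mean by -0.42. Without the 9 cells these were 0.01 and -0.45, and with adjustment for reads as well 0.07 and -0.06. The classes themselves had a rank correlation of 0.12 over cells, 0.35 among chow cells, and -0.16 given reads and genes detected.

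Among the 28 pairs of the set, 5 had a rank correlation of at least 0.3 and 2 of at most -0.3. The share of all gene pairs past these limits was not taken, so the counts do not set these genes apart from others. Hsp90aa1 and Hsp90ab1 were the closest, at 0.89, followed by Hspa8 with Hsp90ab1 at 0.79 and with Hsp90aa1 at 0.71. Given reads and genes detected these became 0.59, 0.46 and 0.18. Hspe1 went with Hsp90ab1 (0.53) and Hsp90aa1 (0.51), at 0.52 each given depth. The inducible HSP70 and its partner were only loosely linked: Hspa1a with Dnajb1 gave 0.22 over all cells, 0.48 in chow and 0.02 in low sodium. Hspa1a with Hspa8 gave -0.05. Dnajb1 and Hspe1 ran against each other (-0.37), as did Hsph1 and Hspe1 (-0.31), with -0.11 and -0.10 without the 9 cells. The link of Hsph1 with Dnajb1 (0.28, and 0.49 in low sodium) likewise came to 0.05 without them. The points of all these correlations are cells that share animals, libraries and depth in ways the labels do not give.

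**Figure D4:**
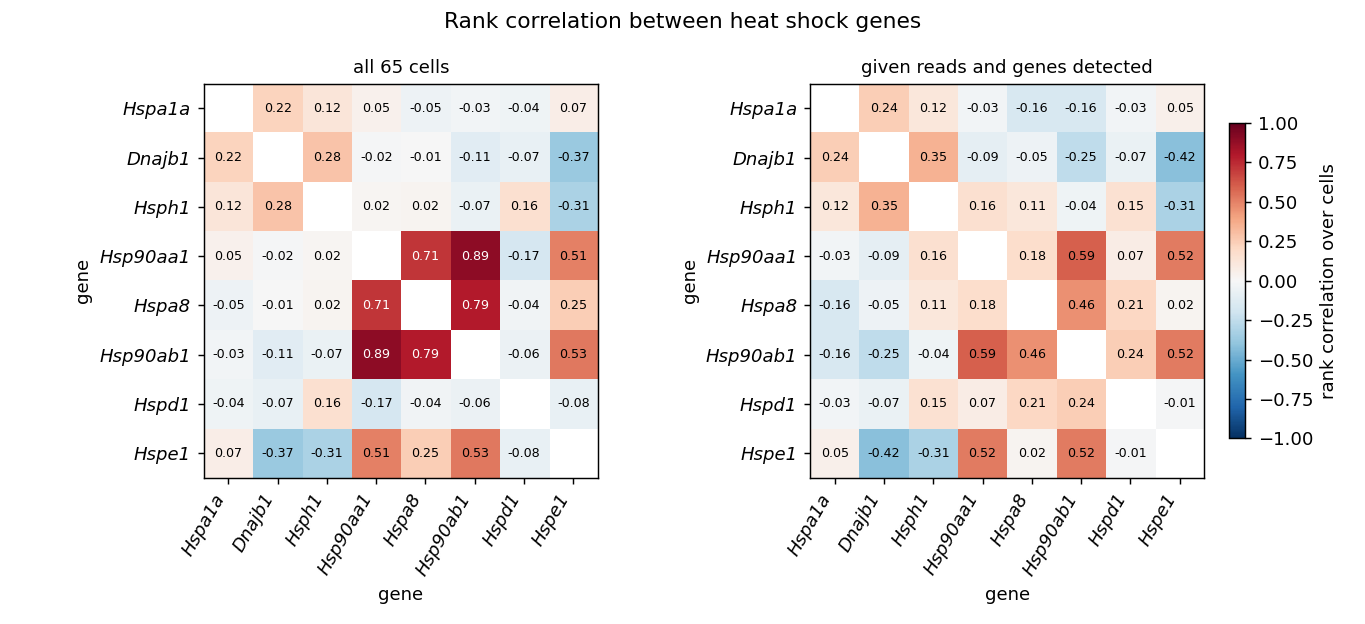
Rank correlation over 65 cells of each pair of heat shock genes, named on both axes, on a colour scale from -1 to 1, on the left as measured and on the right given reads and genes detected per cell. The block of Hsp90aa1, Hspa8 and Hsp90ab1 (0.71 to 0.89) pales on the right (0.18 to 0.59), while Hspd1 with Hspe1 is near 0 in both (-0.08 and -0.01).

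Fos, an immediate early gene that marks recent activity, was above 0 in 53 of 65 cells, 25 of chow and 28 of low sodium. Its means were 6.19 ± 4.05 in chow and 6.56 ± 3.28 in low sodium, a diet difference of 0.37. Without the cells that carry non-neuronal markers the difference was 2.01, and without the high-sum cells 0.29. It was -0.38 when CPM were averaged over the cells of a diet before taking logs. The size and sign of the Fos difference thus depended on the setting. No gene of the set reached a rank correlation of 0.3 with Fos, where 3.01% of 8493 genes above 0 in at least 33 cells did, and the median over the set was -0.06 against 0.05 over all genes. Dnajb1 had 0.21 and Hspa1a 0.19, the others between -0.16 (Hsph1) and 0.00 (Hspa8). Of 11 other immediate early genes 5 passed the limit, led by Egr1 (0.73), Jun (0.71) and Fosb (0.68). The inducible mean had 0.14 with Fos and the constitutive mean -0.05. With the mean of the other immediate early genes in place of Fos, the inducible mean had 0.25.

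Presence of Hspa1a was set beside presence of Fos. Hspa1a was above 0 in 42 of the 53 cells with Fos (79.2%, exact 95% interval 65.9 to 89.2%). It was above 0 in 5 of the 12 cells without Fos (41.7%, 15.2 to 72.3%). The intervals treat cells as independent, although the labels give no animal of origin. They overlap, which does not show that the shares are alike. In chow the shares were 20 of 25 and 3 of 8, and in low sodium 22 of 28 and 2 of 4. Over all cells the shares were 52 of 53 and 10 of 12 for Dnajb1, and 23 of 53 and 2 of 12 for Hspa1b. Such shares were not taken over all genes, so they do not set Hspa1a apart. Over chow cells Hspa1a had a rank correlation of 0.36 with Fos, and over low-sodium cells 0.03; the difference was not tested. Cells at 0 for Hspa1a included some with high Fos, and 11 cells with Fos had none.

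**Figure D5:**
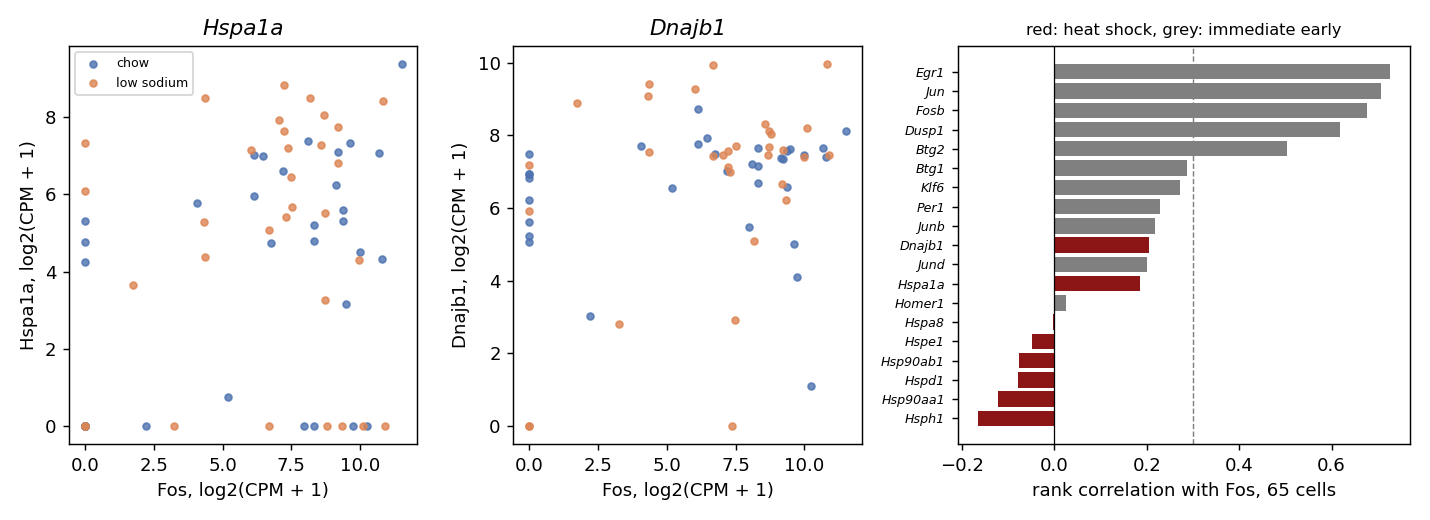
Left and middle, Hspa1a and Dnajb1 against Fos in each cell, all as log2(CPM + 1), coloured by diet. Right, rank correlation with Fos over 65 cells of the 8 heat shock genes (red) and 11 other immediate early genes (grey), with a dashed line at 0.3: Egr1, Jun, Fosb, Dusp1 and Btg2 pass it and no heat shock gene does.

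The wider chaperone system was followed through 82 listed genes, of which 77 had a line. By at least 1, 0 were higher and 1 lower in low sodium, where 3.93% and 6.99% of all genes were. That gene was Dnaja3, which encodes a mitochondrial J-domain protein, at 6.69 ± 1.18 in chow and 5.46 ± 2.36 in low sodium (-1.23, and -0.76 without the 9 cells). In all 20 were higher and 57 lower, with a median of -0.23, against 42.1% of all genes higher and a median of -0.12. Without the 9 cells, 34 were higher and 43 lower, with a median of -0.06, against 43.1% of all genes higher and a median of -0.09. Then 2 genes were lower by at least 1, where 6.73% of all genes were: Trap1, the mitochondrial HSP90 (-1.23), and Dnajb5, a J-domain protein (-1.17).

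By class, 6 of 11 other HSP70 genes were higher, and 9 of 11 without the 9 cells, where 42.1% and 43.1% of all genes were. Among the higher ones were Hspa4 (0.94, 0.67 without the 9 cells) and Hspa13 (0.78, 0.44), while Hspa14 was lower (-0.90, -0.87). Of 20 co-chaperones, which regulate or assist HSP70 and HSP90, 16 were lower, and 14 without the 9 cells. Their median of -0.30 came to -0.11 without the 9 cells. All 7 chaperonin subunits of the cytosolic TRiC ring with a line were lower, with a median of -0.15, and 3 of 7 without the 9 cells. Among the regulators, Hsf1, the factor that binds the repeats shown above, differed by -0.17 (-0.07 without the 9 cells) and was above 0 in 27 chow and 23 low-sodium cells. Its relative Hsf2 differed by -0.64 with and without them, and its binding protein Hsbp1 by -0.61 (-0.43 without). The endoplasmic reticulum chaperones Hspa5 and Hsp90b1 differed by -0.16 and -0.25, and by 0.02 and -0.03 without the 9 cells.

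None of the 66 listed chaperone genes above 0 in at least 33 cells had a rank correlation of 0.3 with Hspa1a, against 0.53% of all genes, and Dnajb6 alone had one of at most -0.3 (-0.33), against 0.977%. The HSP90 co-chaperone Stip1 had -0.25, Hsf1 -0.24 and the chaperonin subunit Cct3 -0.29.

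Likeness over 65 cells gave each gene its own neighbours. For Hspa8 they were the tubulins Tuba1b and Tuba1a (0.84 each) and Ckb, brain creatine kinase (0.83). Among the genes most like Hsp90aa1 were Hsp90ab1 (0.89) and Rtn1 (0.86), and Hsp90ab1 was most like Bex2, Slc25a4 (the mitochondrial ADP/ATP carrier) and Stmn3 (0.91 each). These neighbours share the fall with depth, with rank correlations with reads of -0.76 to -0.86. Weaker neighbours, at most 0.60, were found for Hspd1 (above) and for the inducible genes other than Hsp90aa1: Pcdhga12 (0.57), Ubqln1 (0.56) and Tbc1d20 (0.55) for Dnajb1, Nos1 (0.54), Cngb1 (0.51) and Ndrg3 (0.50) for Hsph1, and Man2a2 (0.39) and Lpp (0.38) among those for Hspa1a. No other gene of the set was among the 3 nearest of Dnajb1, Hsph1 or Hspa1a.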

How the data were processed

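The authors deposited log2(CPM + 1) per gene and cell. Per the submitters' processing notes the builds were mm10 and GRCm38 and the tools featureCounts 1.4.6, SAMtools 0.1.19, Picard 2.5.0, HISAT2 2.0.5 and bcl2fastq; for annotation, filters and scaling total the sources used here give nothing. CPM were recovered by undoing the log2. In every cell 100% of CPM up to 20 times the value of 1 read were whole multiples of it within 0.1, which gave reads per cell. Of 12015 lines, 140 with repeated or numeric names entered totals only. The 9 high-sum cells are those with CPM sums above 1200000, a limit picked with the sums in view. Analyses used Python 3.11.15, numpy 2.4.6, scipy 1.17.1 and pandas 2.3.3, and were tested on simulated data. Correlations are Spearman's. Partial correlations are given log2 reads and genes detected. Transcript lengths are from GENCODE M21. The genes and lists were chosen with earlier results of these data known. Named were the set, Fos, up to 3 genes per chaperone list by diet difference and by correlation with Hspa1a, and the 3 most alike per gene, some of which are not reported here. Hspa1b, Hspa5, Dnajb5 and immediate early genes were named after their values were seen, as was the adjustment for reads. Alternatives were other pseudocounts, scalings, thinning, and leaving out cells.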

Additional observations from a re-analysis of the deposited data

How the results depend on the processing

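No paired analysis was possible because the numbers in the labels only name cells and the results come from no test. The median diet difference over the set lay between -0.48 and 0.14 over all settings tried, within the spread over cells, and its sign is not settled. The number of genes past 1 rose from 0 to 1, always Hspa1a, with a pseudocount of 0.1 CPM (1), size factors (1), thinning (1) and adjustment for reads (1), the last chosen after seeing the data; leaving out single cells gave 0 to 1. Inducible minus constitutive stayed positive, from 0.14 to 0.97. Hspa1a and Hsph1 were higher, and Hspa8 and Hsp90ab1 lower, in low sodium in all settings tried. The smallest of these differences was -0.01, for Hsp90ab1 without the 9 cells and adjusted for reads. The number of genes with a correlation of at least 0.3 with Fos was 1 with Pearson's r (Hspa1a), 1 among chow cells (Hspa1a) and 1 without cells carrying non-neuronal markers (Dnajb1). The inducible with the constitutive mean gave 0.35 among chow cells and -0.16 given reads and genes detected, and the mitochondrial pair 0.17 without cells carrying non-neuronal markers and -0.25 without the 9 high-sum cells; the cause was not tested. Rescaling every cell to an equal CPM sum moved the median of all genes by -0.16, and 17 of the 77 other chaperone genes were then higher. Their median was then -0.42, against -0.27 over all genes. Size factors left 27 higher, with a median of -0.15 against -0.05. The share of all genes higher was not taken under these scalings. Counting Dnaja1 as inducible was not run, since it has no line.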
